A study of Mus musculus with 3 samples.

Results

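Voltage-gated sodium channels carry the inward current that starts and spreads the action potential, and each is built around a pore-forming alpha subunit. The alpha subunits were taken as the 9 genes whose symbols in the deposited gene list are Scn1a, Scn2a, Scn3a, Scn4a, Scn7a, Scn8a, Scn9a, Scn10a and Scn11a, of 32227 genes in all. The rule is by symbol and uses no measured value, but it was set with earlier results of these data known. They were followed in single-nucleus RNA-seq of L3 to L5 dorsal root ganglia (DRG), which hold the somas of sensory neurons, from C57BL/6 mice with no treatment or injury. There was 1 adult library (3 months, adult 1) and there were 2 aged libraries (21 months, aged 1 and aged 2). The labels call the mice male, but the study's methods describe aged females and the series text gives another age for the aged mice, so sex and age cannot be told apart here. The number of mice in a library is not stated. With a lone adult library, age cannot be separated from whatever else set that library apart, and p-values measure the spread between these libraries, which may be technical.

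In sensory neurons the alpha subunits divide into channels that low concentrations of tetrodotoxin block and channels that resist the toxin. Scn9a encodes Nav1.7, a nociceptor channel whose loss removes pain sensation in humans, and Scn10a and Scn11a encode Nav1.8 and Nav1.9, the toxin-resistant channels of nociceptors. Scn8a (Nav1.6) is the main channel of nodes of Ranvier, and Scn1a (Nav1.1) and Scn2a (Nav1.2) are best known from the brain. Scn3a (Nav1.3) is mostly embryonic and is known to return after nerve injury, Scn4a (Nav1.4) is the skeletal muscle channel, and Scn7a encodes Nax, a relative known as a sodium sensor in glia.

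The adult 1, aged 1 and aged 2 libraries, the order kept below, held 167664164, 95647106 and 69045987 unique molecular identifiers (UMIs, 1 for each captured transcript). Barcodes with more than 1000 genes were taken as nuclei, and there were 11518, 5130 and 2611 of them, with at most 1 barcode shared between libraries. Nuclei were clustered without the 9 genes and without 17 genes of their partners, and a cluster was named after the cell type whose markers led it. A cluster named as neurons had 6 to 10 of the 10 neuron markers above the naming thresholds. All 10 were detected in the summed neuron UMIs, but also in other classes given below, so detection alone does not mark neurons. Neuron-like nuclei numbered 4542, 2425 and 1304. Of these, 19.2%, 40.1% and 29.5% lay in clusters poor in the nuclear RNA Malat1 and are also described apart. A level is given in CPM, the UMIs of a gene scaled to a fixed total of UMIs in a class or subtype of 1 library, and every test compared such sums over libraries, not over nuclei.

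Scn10a and Scn11a are adjacent genes whose levels followed each other over neuron subtypes, and Scn1a and Scn8a did so from separate chromosomes. The promoters of these 4 genes are shown for that reason, as the 250 bases before the start site in RefSeq on GRCm38.p6, which listed 8 of the 9 genes and not Scn3a. Both strands were searched for the TATA box written TATAAA, the CCAAT box as these letters stand, the GC box written GGGCGG, a RUNX motif written TGTGGT, an ISL1 motif written CTAATG and the octamer written ATTTGCAT. The CCAAT of Scn1a, in capitals, was the one match in these 4 windows. Scn10a lies at chr9:119719033-119719282 and Scn11a at chr9:119825457-119825706, both on the minus strand. Scn1a lies at chr2:66440838-66441087 on the minus strand, and the first listed start of Scn8a at chr15:100870395-100870644 on the plus strand.
Scn10a: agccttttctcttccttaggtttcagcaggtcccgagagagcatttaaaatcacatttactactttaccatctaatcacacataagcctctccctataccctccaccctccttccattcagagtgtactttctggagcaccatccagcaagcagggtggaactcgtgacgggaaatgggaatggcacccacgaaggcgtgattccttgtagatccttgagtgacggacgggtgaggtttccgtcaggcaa
Scn11a: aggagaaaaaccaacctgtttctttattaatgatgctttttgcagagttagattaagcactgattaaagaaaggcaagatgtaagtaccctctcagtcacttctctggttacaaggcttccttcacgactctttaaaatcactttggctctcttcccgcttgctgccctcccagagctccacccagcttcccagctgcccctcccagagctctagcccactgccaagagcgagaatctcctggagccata
Scn1a: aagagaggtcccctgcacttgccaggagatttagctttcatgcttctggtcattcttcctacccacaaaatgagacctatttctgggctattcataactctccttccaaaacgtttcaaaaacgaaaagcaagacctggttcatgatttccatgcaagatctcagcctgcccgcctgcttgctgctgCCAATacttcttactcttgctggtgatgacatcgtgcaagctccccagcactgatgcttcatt
Scn8a: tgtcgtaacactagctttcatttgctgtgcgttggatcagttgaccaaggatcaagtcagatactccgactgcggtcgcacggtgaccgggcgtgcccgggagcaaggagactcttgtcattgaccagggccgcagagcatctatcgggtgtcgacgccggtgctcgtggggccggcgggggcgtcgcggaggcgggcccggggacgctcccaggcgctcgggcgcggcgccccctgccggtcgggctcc
CCAAT is held by 33.8% of the 32851 promoters of the table. The Scn8a window holds 30 CpG, against a median of 6 over all promoters, and those of Scn10a, Scn11a and Scn1a hold 8, 3 and 4. A match describes these letters and is not a binding site.

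On GRCm38, 5 of the genes lie within 1 stretch of chromosome 2. They are Scn3a (chr2:65457118-65567627, minus strand), Scn2a (chr2:65620771-65767447, plus strand), Scn1a (chr2:66270778-66440840, minus strand), Scn9a (chr2:66480080-66634962, minus strand) and Scn7a (chr2:66673425-66784914, minus strand). Scn10a (chr9:119608456-119719322) and Scn11a (chr9:119753759-119825456) are on the minus strand of chromosome 9, Scn8a is at chr15:100869858-101045938 (plus strand) and Scn4a at chr11:106318592-106353288 (minus strand). Whether the counting used strand is not given in the sources used here, and Scn9a, Scn1a and Scn3a each overlap a gene on the opposite strand, Gm13629, Gm13630 and Gm13595 in that order. Per kb of gene, introns included, Malat1-rich neurons held 8.44 CPM of Scn10a, 5.30 of Scn9a, 4.997 of Scn11a and 3.56 of Scn7a. On the same per-length scale Scn8a followed at 1.38, Scn2a at 1.29, Scn1a at 1.28, Scn3a at 0.386 and Scn4a at 0.0554. The nociceptor channels thus had the highest levels of the family per length, and the muscle channel the lowest.

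For every alpha subunit but Scn4a, mean CPM in neuron-like nuclei was above the average of the other 7 class means, and the fitted log2 contrast with those classes was called higher for all 9 (edgeR quasi-likelihood test with library as a block, adjusted p from 1.64e-14 for Scn9a to 0.00799 for Scn4a). Of all 14778 genes tested, 61.3% were called in neurons and 34.4% were higher. Scn10a stood at 913, 809 and 949 CPM in neurons and at 51.0, 72.3 and 90.1 in satellite glial cell (SGC)-like nuclei, the glia that wrap the somas. Its log2 difference from the mean of the other classes was 3.73 ± 0.18 (SE), the largest of the family. Levels of Scn9a in neurons were 821, 819.7 and 844 CPM (log2 3.03), and those of Scn11a were 336, 351 and 369 (log2 2.91). Neurons held 262, 267 and 206 CPM of Scn1a, 288, 285 and 257 of Scn8a, 161, 175 and 176 of Scn2a and 37.7, 37.8 and 42.2 of Scn3a, with log2 differences of 2.99, 2.37, 3.29 and 3.45. For these 7 genes every neuron value lay above every library of every other class. Scn4a was near absent, at 1.75, 2.16 and 2.02 CPM from 118, 88 and 61 UMIs (log2 1.68). Its mean of 1.98 CPM lay below those of B lymphocyte-like (15.4) and myeloid-like nuclei (2.09), and endothelial-like nuclei held 0. The Scn4a call was lost without aged 2 (log2 1.41, adjusted p = 0.0878).

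**Figure D1:**
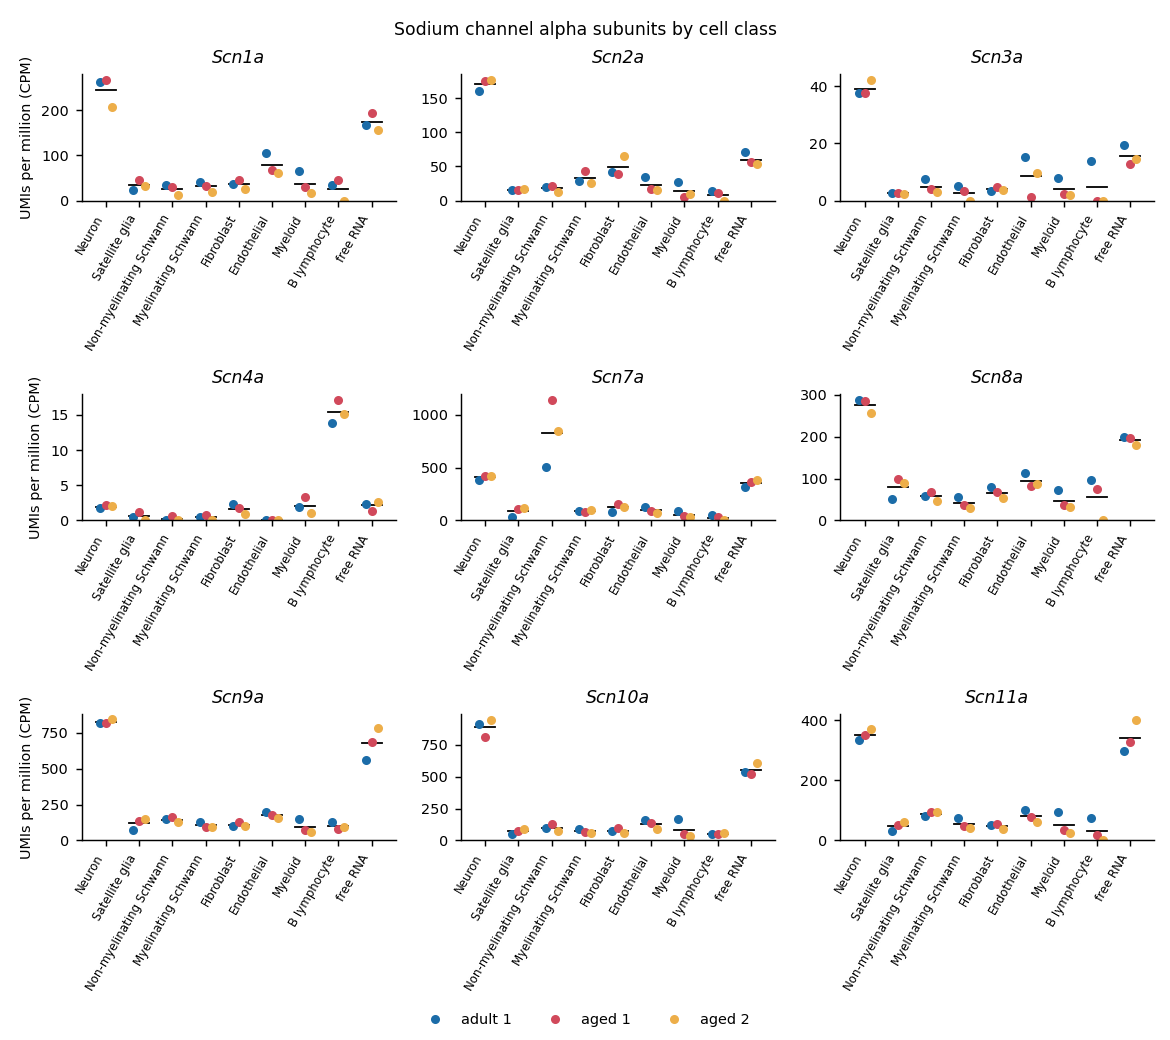
Levels of the 9 genes by cell class in CPM, each panel with its own axis from 0, with a point for each of the 3 libraries, a line for their mean and free RNA (barcodes of up to 100 UMIs) in the last column. Neurons are highest in 7 panels, Scn7a is highest in non-myelinating Schwann-like nuclei at 509.6, 1141 and 843 CPM, and the highest Scn4a points rest on 2, 3 and 1 UMIs.

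Free RNA carried neuronal transcripts in every library, which bears on all low levels outside neurons. In barcodes of up to 100 UMIs, Scn9a stood at 559.7, 685 and 785 CPM and Scn10a at 534, 524 and 611. An upper bound on the part of free RNA in a class was taken from the marker list of another lineage with the lowest ratio to free RNA. With each nucleus thinned to 1000 UMIs, 49.8%, 53.2% and 54.6% of neuron-like nuclei held a UMI of Scn9a, against 8.82%, 7.56% and 3.86% of myeloid-like nuclei, which should lack it (in adult 1, 95% Clopper-Pearson intervals of 48.3% to 51.2% and 5.31% to 13.6%, for counting error only). Before thinning the adult 1 shares were 85.8% and 26.0%, at median depths of 7382.5, 5718 and 7442 UMIs in neurons and 2041.5, 3160 and 3538 in myeloid-like nuclei of the 3 libraries. Scn10a was found in 43.6%, 39.4% and 49.6% of thinned neurons and 12.7%, 4.12% and 2.15% of thinned myeloid-like nuclei. The thinned share of Scn4a was 0.154%, 0.206% and 0.307% in neurons and 0%, 0.687% and 0% in myeloid-like nuclei, where 0 allows up to 1.47% in adult 1 and 1.29% in aged 2, so that no difference in these shares was detectable at this depth.

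Scn7a was higher in a glial class than in all neurons together. Non-myelinating Schwann cell (NMSC)-like nuclei, the glia that bundle unmyelinated axons, held 509.6, 1141 and 843 CPM, and neurons held 383, 425 and 422. These ranges did not overlap, but those of single neuron subtypes, described below, did. The Cadps2 cluster of neurons had a mean of 1042 CPM, against 831 in NMSC-like nuclei. The log2 difference from the mean of the other classes was 3.19 ± 0.22 (SE, adjusted p = 6.25e-11) in NMSC-like nuclei, where 21.3% of genes were called, and 2.22 in neurons. NMSC-like levels were 8.68, 17.1 and 20.3 times the free-RNA bound. Of NMSC-like nuclei thinned to 1000 UMIs, 24.8%, 46.7% and 44.3% held a UMI of Scn7a, against 4.41%, 4.12% and 3.86% of myeloid-like nuclei. Myelinating Schwann cell (MSC)-like nuclei held 85.2, 84.3 and 97.5 CPM, 1.25, 1.70 and 2.28 times their bound.

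Over the 8 classes, 29 of 72 gene and class pairs were called, 13 higher and 16 lower, against 34.7% of all pairs. Neurons gave 9 of the higher calls and NMSC-like Scn7a another. Scn2a was higher in fibroblast-like nuclei (42.3, 39.0 and 64.8 CPM, 2.65, 3.33 and 9.12 times the bound, log2 0.89 ± 0.23 SE, adjusted p = 0.00379). Without aged 2 that call was lost (log2 0.59, adjusted p = 0.146), as it was with over 2000 genes per nucleus (log2 0.59), and when nuclei were assigned one by one from markers the difference was 0.12 (adjusted p = 0.77). Scn1a was higher in endothelial-like nuclei (106, 67.7 and 60.5 CPM, log2 0.77, adjusted p = 0.0256), but the difference was -0.40 under one-by-one assignment. That call was also lost without aged 1 (log2 1.08) and without aged 2 (log2 0.67). Scn4a in B lymphocyte-like nuclei rests on 2, 3 and 1 UMIs. Of the 16 lower calls, 6 were in myeloid-like nuclei, led by Scn7a (log2 -1.61) and Scn2a (log2 -1.47). Both were lost without aged 1 (log2 -1.45 and -0.99) and with free RNA subtracted, where Scn2a was fitted at -1.35 and Scn7a was left with no size that can be read, and that of Scn2a also under one-by-one assignment (log2 -0.51) and after thinning. Without aged 1 the calls numbered 12 of 72 and without aged 2 18, and 15 of the 29 were kept when free RNA was subtracted. What share of all pairs was called in those settings is not given.

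Among Malat1-rich neurons 9 subtypes had at least 20 nuclei in each library. Markers named A-fibre-like neurons (large and myelinated), Mrgprd non-peptidergic-like and Peptidergic C-like nociceptors, Sst itch neuron-like, Trpm8 cold-like and Th low-threshold mechanoreceptor-like nuclei. The other 3 are called by their leading gene the Chrna7, Kcnh5 and Cadps2 clusters. Of 81 gene and subtype pairs, 67 differed from the mean of the other subtypes, 39 higher and 28 lower, against 38.0% of all pairs over the 15913 genes tested. The same 67 pairs were called by DESeq2, with free RNA subtracted and with over 2000 genes required per nucleus. The 9 genes did not enter the clustering, but genes that vary with them did, so these tests describe clusters drawn from the same nuclei.

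**Figure D2:**
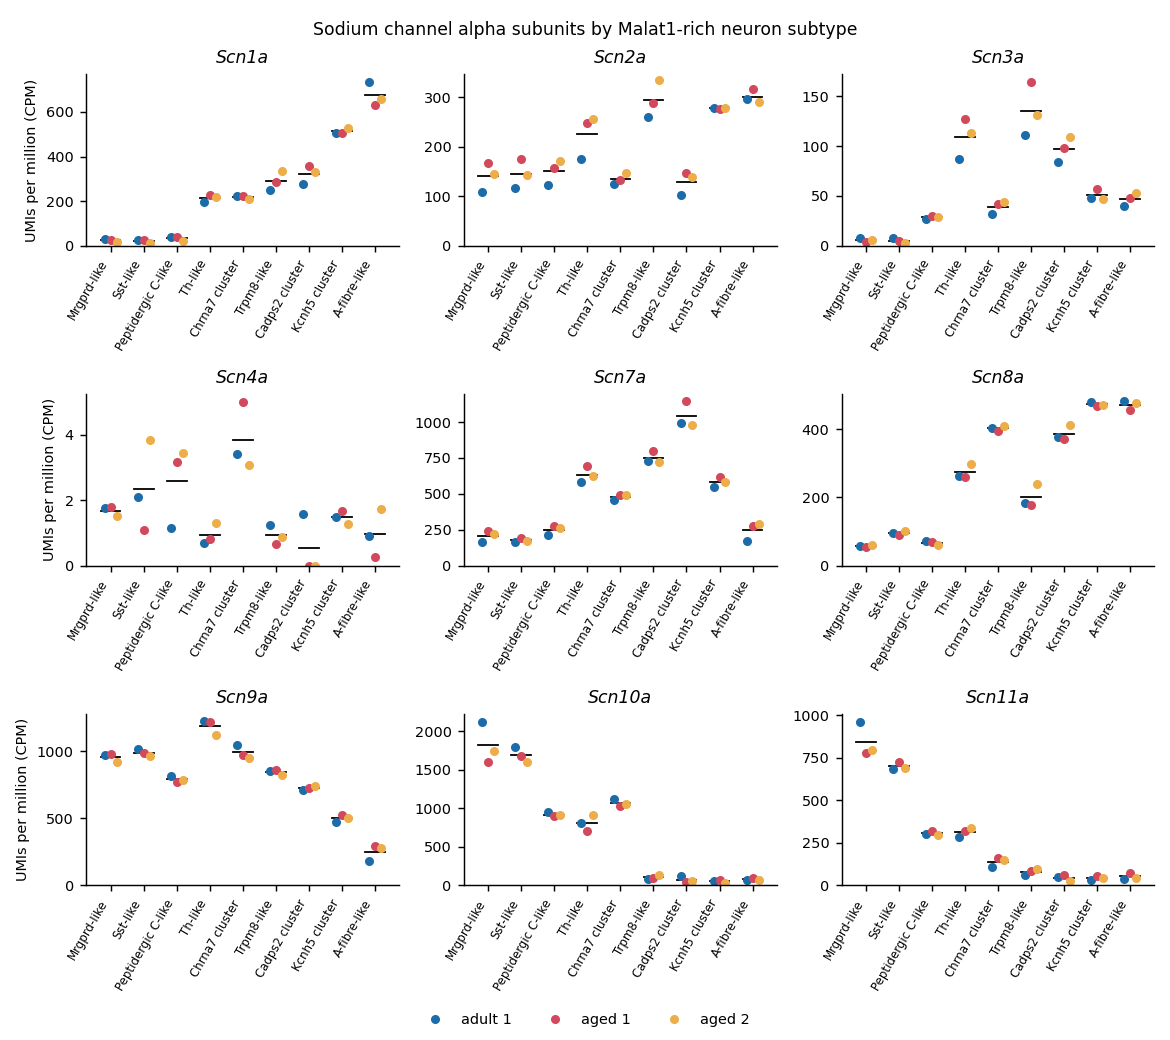
Levels of the 9 genes in the 9 Malat1-rich neuron subtypes in CPM, each panel with its own axis from 0, with a point for each of the 3 libraries and a line for their mean. Scn10a and Scn11a are highest in Mrgprd- and Sst-like neurons, Scn1a and Scn8a in A-fibre-like neurons and the Kcnh5 cluster, and Scn4a does not pass 4.99 CPM.

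Scn10a was highest in nociceptor-like subtypes. In Mrgprd-like neurons Scn10a stood at 2120.3, 1601 and 1745 CPM (log2 2.71 ± 0.14 SE above the other subtypes, adjusted p = 1.07e-14) and in Sst-like neurons at 1788, 1684 and 1598, and these ranges overlapped. The Chrna7 cluster (1070.1 ± 50.01 CPM, SD, n = 3 libraries) came next. Peptidergic C-like (919 ± 26.3) and Th-like neurons (807 ± 109) followed and overlapped each other. Below a wide gap, Trpm8-like (106), A-fibre-like (79.8), Cadps2 (74.2) and Kcnh5 (52.2) nuclei overlapped from each rank to the next. The highest mean was 34.9 times the lowest. After thinning, 80.1%, 75.5% and 79.5% of Mrgprd-like nuclei held a UMI of Scn10a, against 6.29%, 12.7% and 6.45% of A-fibre-like nuclei.

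Nav1.9 had a like order, with a difference in the Chrna7 cluster. Mrgprd-like neurons held 962, 779 and 794 CPM of Scn11a (log2 2.77 ± 0.10 SE, adjusted p = 2.83e-17) and Sst-like neurons 685, 724 and 689, with no overlap. Th-like (315 CPM) and Peptidergic C-like neurons (306) overlapped each other. The Chrna7 cluster held 1126, 1028 and 1056 CPM of Scn10a (log2 1.80, adjusted p = 2.61e-10) but 110.1, 159 and 147 of Scn11a, which was not called (log2 -0.24). The lowest subtypes, from Trpm8-like (81.2 CPM) to Kcnh5 (44.8), overlapped from each rank to the next.

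Nav1.7 was the broadest of the nociceptor channels. Scn9a was highest in Th-like neurons, at 1225, 1217 and 1121 CPM (log2 0.86 ± 0.075 SE, adjusted p = 6.97e-10), above every value of the next subtype. The Chrna7 cluster (990.2), Sst-like (989) and Mrgprd-like neurons (956) overlapped from each rank to the next. A-fibre-like neurons were lowest, at 181, 290.4 and 275 CPM (log2 -1.76 ± 0.096 SE, adjusted p = 5.94e-14), and the highest mean was 4.77 times theirs. In the same A-fibre-like nuclei the overlapping Gm13629 held 251, 203 and 215 CPM, near the Scn9a level, and reads of the pair cannot be told apart without strand.

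Scn1a and Scn8a had another order, highest in A-fibre-like neurons and the Kcnh5 cluster but not limited to them. Mean Scn1a was 290 CPM in Trpm8-like and 215 in Th-like neurons, and mean Scn8a 200 and 274. Scn1a reached 734, 630.1 and 658 CPM in A-fibre-like neurons (log2 2.53 ± 0.099 SE, adjusted p = 9.06e-17), above the Kcnh5 cluster at 504, 507 and 529, with no overlap. It was lowest in Peptidergic C-like (32.7 CPM), Mrgprd-like (24.1) and Sst-like neurons (21.7), which overlapped, and the highest mean was 31.0 times the lowest. After thinning, 45.7%, 41.6% and 46.8% of A-fibre-like nuclei held a UMI of Scn1a, against 4.26%, 4.63% and 2.33% of Mrgprd-like nuclei. Scn8a stood at 481, 469.5 and 472 CPM in the Kcnh5 cluster and at 482, 455 and 478 in A-fibre-like neurons, which overlapped. Scn8a was lowest in Mrgprd-like neurons at 57.9, 54.1 and 60.6 CPM (log2 -2.03 ± 0.084 SE, adjusted p = 2.74e-16), and the ratio of the highest to the lowest mean was 8.25. The Chrna7 cluster was above the mean of the other subtypes in both Scn8a (405, 394 and 409 CPM, log2 1.08) and Scn10a.

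Scn2a varied least between subtypes. A-fibre-like (297, 318 and 291 CPM), Trpm8-like (260.3, 288 and 335) and Kcnh5 nuclei (278, 277 and 279) overlapped from each rank to the next, and the ratio of the highest to the lowest mean, that of the Cadps2 cluster, was 2.33. Scn3a was highest in Trpm8-like neurons at 111, 164 and 131 CPM (log2 2.05 ± 0.13 SE, adjusted p = 2.12e-12), overlapping Th-like neurons at 87.0, 127 and 113. Mrgprd-like (5.61 CPM) and Sst-like neurons (4.80) held the least, and the ratio of the highest to the lowest mean was 28.2. The A-fibre-like call of Scn3a (log2 0.40, adjusted p = 0.0201) was lost without aged 1 (adjusted p = 0.0575) or aged 2 (adjusted p = 0.117).

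Neuronal Scn7a was highest in the Cadps2 cluster, at 997, 1147 and 980.1 CPM (log2 1.57 ± 0.077 SE, adjusted p = 1.52e-14). Trpm8-like neurons followed at 726, 796 and 726, below all Cadps2 values. The lowest were Peptidergic C-like (249.8 CPM), A-fibre-like (246), Mrgprd-like (209) and Sst-like neurons (175), each overlapping the next. All neighbours in the order of Scn4a overlapped, and its 1 call, in the Chrna7 cluster (3.41, 4.99 and 3.08 CPM, log2 1.51, adjusted p = 0.000655), was kept with free RNA subtracted.

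Over the 9 subtype means, which share libraries and scaling, log2 CPM (with 1 added) of Scn10a and Scn11a had a Pearson correlation of 0.94, Scn1a and Scn8a one of 0.94 and Scn1a and Scn11a one of -0.91, given as a description. Among 7714 candidate genes, those like Scn1a by this measure included Gria3 (0.98) and Cpeb3 (0.96), and those most like Scn8a were Tmem25 (0.98), Cds1 (0.97) and Phlpp1 (0.96). Kcng2, a potassium channel subunit, was among the first 3 for both Scn10a (0.96, with Ostc (0.97) and LTO1 (0.95)) and Scn11a (0.98, with Rbms1 (0.97) and Ccnl1 (0.97)). Scn9a was most like Ppef1 (0.96), Fam91a1 (0.95) and Heatr6 (0.95), and Scn7a like Noc2l (0.96), Lin7a (0.95) and Zfp74 (0.94). Scn2a was most like Gm39185 (0.95), Rapgef2 (0.94) and Sik2 (0.92), and Scn3a like Rab11fip4 (0.96), Nmt2 (0.96) and D630045J12Rik (0.95).

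The partners of the alpha subunits also differed between subtypes, in 114 of 153 pairs of a partner and a subtype, 61 higher and 53 lower, against 38.0% of all pairs. Of the beta subunits, which adjust gating, Scn3b (6.65, 5.55 and 10.8 CPM, log2 -1.80, adjusted p = 6e-09) and Scn2b (log2 -1.61) were lower in A-fibre-like neurons. Of the fibroblast growth factor homologous factors, which bind the tail of the channel, Fgf14 was higher in A-fibre-like neurons (614, 557 and 676 CPM, log2 2.87) and lower in Mrgprd-like ones (log2 -2.39). Fgf13 was lower in A-fibre-like (log2 -0.98) and higher in Mrgprd-like neurons (531, 629 and 596 CPM, log2 0.92). Ank3, which encodes the ankyrin-G that gathers channels at the initial segment and the node, was higher in Mrgprd-like (3829.6, 2576 and 2778 CPM, log2 1.35) and lower in A-fibre-like neurons (646, 631 and 579.9 CPM, log2 -1.26). Its nodal partner Nfasc was higher in A-fibre-like (325, 288 and 291 CPM, log2 1.39) and lower in Mrgprd-like neurons (log2 -2.67).

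Low-Malat1 neuron barcodes were matched to Malat1-rich nuclei by the name their markers gave, in 4 subtypes (A-fibre-, Mrgprd-, Peptidergic C- and Th-like). The Peptidergic C-like match is uncertain, as described below. This comparison, with library and subtype as blocks, was chosen after the data had been seen. The states differed in 78.7% of 14484 genes, and 6 of the 9 alpha subunits were among them, a smaller share. Signs of RNA quality moved with the state, and their part in these results was not tested. Mitochondrial UMIs made up 0.574 to 0.781% of UMIs in the 4 low-Malat1 clusters and 0.122 to 0.175% in the matched Malat1-rich ones, and median depths were 3089 to 5960 and 7580.5 to 19196.5 UMIs. The upper bound on free RNA was 20.3%, 17.8% and 17.3% of UMIs over all low-Malat1 neurons and 9.39%, 9.94% and 6.46% over Malat1-rich ones. In A-fibre-like barcodes Scn2a stood at 297, 318 and 291 CPM where Malat1 was rich and at 28.1, 28.2 and 17.3 where it was poor. It was below in 12 of 12 pairs of a subtype and a library, with a log2 difference of -2.57 ± 0.17 (SE, adjusted p = 1.71e-12). Scn3a was lower too (log2 -1.59 ± 0.21 SE, adjusted p = 1.69e-07), in 10 of 12 pairs.

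**Figure D3:**
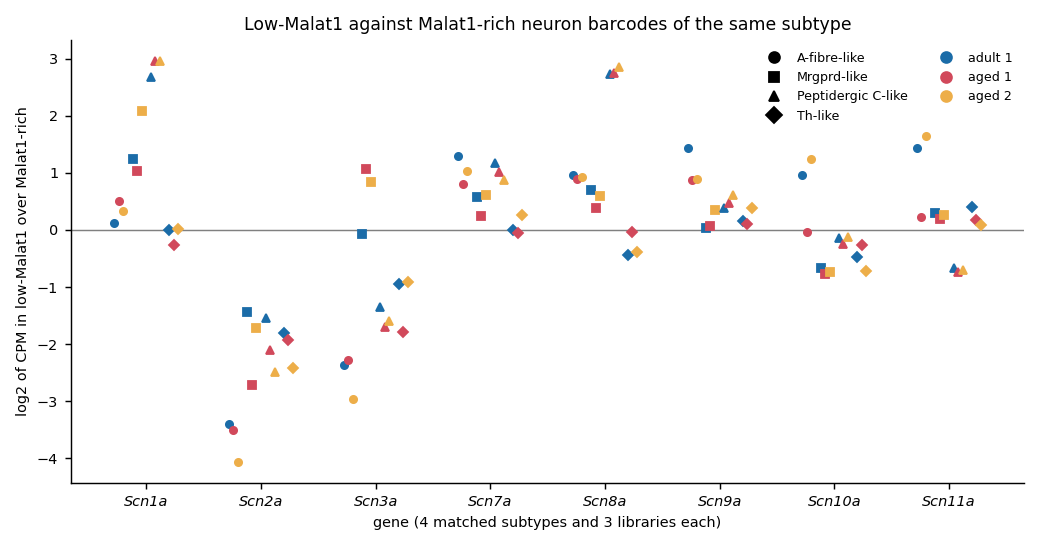
Log2 of the CPM in low-Malat1 over Malat1-rich neuron barcodes for each of the 9 genes except Scn4a, with a point for each of 4 subtypes matched by name in each of 3 libraries. Scn4a is not drawn, and its ratio was 0 in some pairs. All 12 Scn2a points lie below 0 and all 12 Scn9a points above it.

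Higher in low-Malat1 barcodes were Scn1a (log2 0.94, adjusted p = 0.00326), Scn8a (0.86, adjusted p = 0.00534), Scn7a (0.51, adjusted p = 0.000693) and Scn9a (0.33, adjusted p = 0.013). Scn9a was above in 12 of 12 pairs, but its call was lost without aged 1 (log2 0.31, adjusted p = 0.0761) or aged 2 (0.20, adjusted p = 0.234). Scn10a was not called (log2 -0.34, adjusted p = 0.0508), but it was without aged 2 (-0.45, adjusted p = 0.0152). Scn8a in A-fibre-like barcodes was 482, 455 and 478 CPM where Malat1 was rich and 939, 842 and 905 where it was poor, while in Th-like ones it was lower in 3 of 3 libraries where Malat1 was poor. The low-Malat1 Peptidergic C-like cluster held 4 of 6 markers, against 6 of 6 in the Malat1-rich one. Its Scn1a (243, 287 and 182 CPM) and Scn8a (474, 469.8 and 445 CPM) stood far above the Malat1-rich values (37.9, 37.1 and 23.3 and 71.5, 69.9 and 61.4 CPM). They were nearer the means of the Malat1-rich Chrna7 cluster (219 and 403 CPM), after which no low-Malat1 cluster was named. Mean Scn10a was 818 CPM, nearer Malat1-rich Peptidergic C-like nuclei (919) than the Chrna7 cluster (1070). Whether this pair holds 1 subtype, and its part in the Scn1a and Scn8a calls above, was not tested.

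Of the partners, 14 of 17 differed between the states, near the 78.7% of all genes. The beta subunits Scn4b (log2 2.71) and Scn2b (1.61) were higher in low-Malat1 barcodes, and Fgf14 (-2.20), Fgf12 (-1.89) and Ank3 (-0.58) were lower. Among the 4 low-Malat1 subtypes, 24 of 32 gene and subtype pairs were called, against 29.9% of all. Scn10a (1336, 941 and 1051 CPM, log2 1.49) and Scn11a (1187, 886 and 958 CPM, log2 2.35) were highest in Mrgprd-like barcodes there, and Scn1a (799, 895 and 825 CPM, log2 2.60) and Scn8a (log2 2.20) in A-fibre-like ones.

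With age, no alpha subunit was called in all neurons together by edgeR or DESeq2, and none had an unadjusted p under 0.05 in edgeR, against 9.17% of 21925 genes called by edgeR. Nor was any called in Malat1-rich or low-Malat1 neurons alone, where 5.90% and 7.86% of genes were called by edgeR. An unadjusted p under 0.05 was found there for 2 genes each, Scn1a (log2 -0.43) and Scn8a (-0.31) in Malat1-rich and Scn2a (-0.39) and Scn10a (-0.26) in low-Malat1 neurons. The shares of all genes given here are of adjusted calls, so these counts cannot be read against them. These fits have 1 residual degree of freedom, and the lone adult library is assumed to vary like the aged ones. The log2 differences, aged minus adult, ran from -0.27 ± 0.22 (SE) for Scn1a to 0.13 ± 0.36 for Scn4a. Scn9a differed by -0.10 ± 0.23, Scn10a by -0.18 ± 0.23, Scn11a by -0.020 ± 0.22 and Scn8a by -0.21 ± 0.22. Such errors leave room for differences of moderate size, which were not detectable with these libraries. Library-size scaling moved the median of all genes by 0.12 here. In the same neurons the injury gene Atf3 stood at 3.09, 18.3 and 9.13 CPM (log2 2.03, adjusted p = 4.84e-11). Atf3 was followed with the injury genes Sox11, Sprr1a, Ecel1 and Npy, which are not given here, so no injury state is read from it. No partner was called, of 17 tested.

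**Figure D4:**
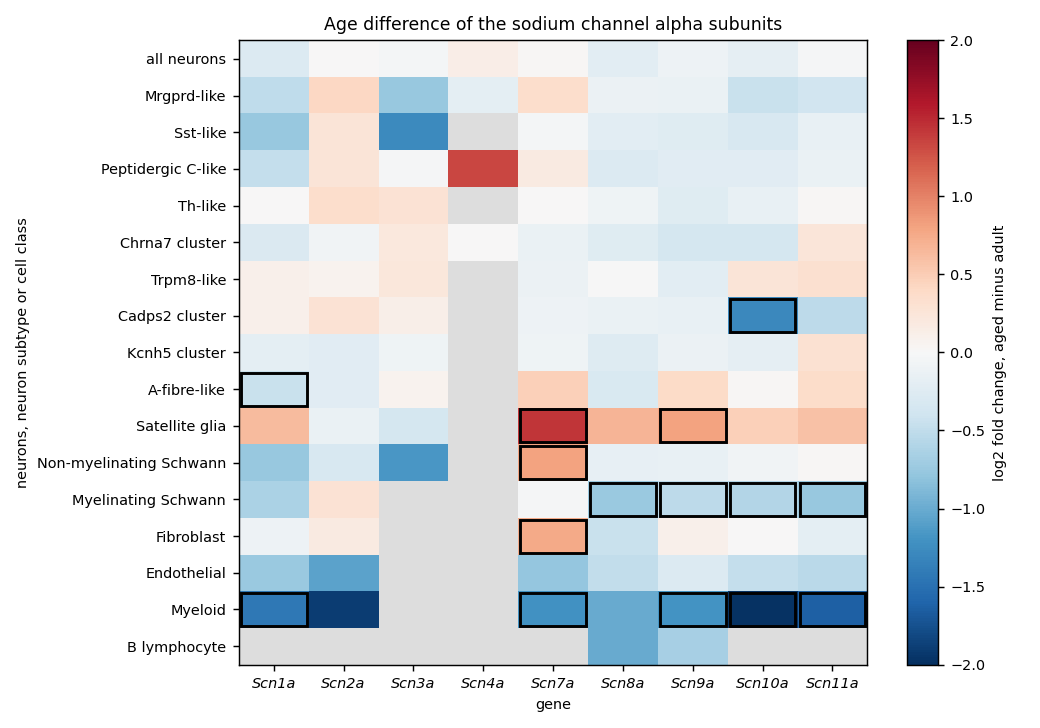
Log2 fold change, aged minus adult, of each gene in neurons, neuron subtypes and other cell classes, as a colour scale from blue (lower) to red (higher), with grey for pairs not tested. Outlined pairs passed an adjusted p of 0.05, and of these 2 lie in neuron subtypes and 13 in other classes.

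Within subtypes 2 of 75 pairs were called, both lower, against 5.71% of all pairs. An unadjusted p under 0.05 was found for 13, 4 higher and 9 lower. The share of all pairs at that looser threshold is not given, so the 13 cannot be read against the 5.71%. Scn1a in A-fibre-like neurons was 734, 630.1 and 658 CPM, with both aged values below the adult one (log2 -0.45 ± 0.15 SE, adjusted p = 0.0426, with 8.58% of genes called). It was not called with library-size scaling (log2 -0.19, adjusted p = 0.416) or after thinning (log2 -0.26). The difference was about as large, though not called, by DESeq2 (log2 -0.44, adjusted p = 0.484), with no filter (-0.43) and with over 2000 genes per nucleus (-0.49). Atf3, the only injury gene given here, stood at 4.43, 70.0 and 52.5 CPM in the same nuclei (log2 3.54), and its part in the result was not tested. Malat1-rich A-fibre-like nuclei numbered 477, 173 and 62 and low-Malat1 ones 246, 369 and 117, so that most aged A-fibre-like barcodes lay in the low-Malat1 cluster. There Scn1a stood at 799, 895 and 825 CPM and was not called with age (log2 0.016 ± 0.12 SE, adjusted p = 0.968). Scn10a in the Cadps2 cluster, where it is low, was 117, 41.3 and 64.3 CPM from 298, 26 and 99 UMIs (log2 -1.29 ± 0.32 SE, adjusted p = 0.0408, with 1.29% of genes called). It was not called by DESeq2 (log2 -1.30), with over 2000 genes per nucleus (-1.21) or with library-size scaling (-1.10).

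In Mrgprd-like neurons, where Scn10a is highest, the adult value of 2120.3 CPM stood above 1601 and 1745, but the difference was not called (log2 -0.44 ± 0.21 SE, adjusted p = 0.142). Both aged CPM values lay above the adult one in 7 subtypes for Scn2a and Scn7a (below in 0). For Scn3a and Scn11a they did so in 6 (below in 2 and 1). Above and below numbered 1 and 5 for Scn10a, 4 and 5 for Scn1a, 3 and 4 for Scn9a and 0 and 3 for Scn8a. These counts were not tested. They use CPM, which is library-size scaling, and not the TMM scaling of the fits. In the 9 subtypes that choice moved the median log2 age difference of all genes up by 0.10 to 0.26. The counts thus lean towards higher aged values for any gene. Age effects were not called as different between subtypes for any of 81 pairs by edgeR, against 0.168% of all. An unadjusted p under 0.05 was found for 13, 5 higher and 8 lower, again with no share of all pairs at that threshold. Scn9a in A-fibre-like neurons came nearest, with a log2 difference of age effects of 0.61 ± 0.14 (SE). Of the partners, 18 of 147 pairs were called within subtypes, 4 higher and 14 lower, against 5.71% of all pairs. The lower calls were of S100a10, Cntn1 and Ank3 in 3 subtypes each, Fgf12 and Fgf14 in 2 each and Nfasc in Mrgprd-like neurons (log2 -1.22, adjusted p = 3.6e-07). They ran from log2 -1.75 for Fgf14 in the Chrna7 cluster to -0.47 for Cntn1, a cell adhesion molecule, in the Kcnh5 cluster. The higher calls were of Sptbn4 in Mrgprd-like neurons (log2 0.75), Fgf14 in Sst-like neurons (0.99) and Scn4b. Scn4b, the beta4 subunit, was higher in A-fibre-like neurons (36.5, 77.4 and 71.9 CPM, log2 0.78, adjusted p = 0.00633) and in the Kcnh5 cluster (37.1, 79.7 and 78.5 CPM, log2 0.87, adjusted p = 0.000245). Scn4b was also higher in low-Malat1 barcodes, as given above, and the part of that state here was not tested. The partner calls were not followed over the alternative settings. Of the 15 age calls of alpha subunits, DESeq2 kept 3 and thinning 2, and the share of all genes called in those settings is not given.

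Outside neurons 13 of 46 pairs were called with age, 4 higher and 9 lower, against 7.05% of all pairs. Scn7a was higher in 3 classes, with both aged values above the adult one in each. In SGC-like nuclei it was 37.3, 107 and 122 CPM (log2 1.43 ± 0.17 SE, adjusted p = 0.00905), where 3.24% of genes were called. In NMSC-like nuclei it was 509.6, 1141 and 843 CPM (log2 0.81 ± 0.20 SE, adjusted p = 0.00239), where 6.27% were called. In fibroblast-like nuclei it was 81.4, 158 and 131 CPM (log2 0.75 ± 0.25 SE, adjusted p = 0.0392), where 6.55% were called.

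SGC-like levels of Scn7a were 0.921, 3.21 and 2.39 times the free-RNA bound, so that the adult level lay within it. Thinned to 1000 UMIs, 3.03%, 9.28% and 9.52% of SGC-like nuclei held a UMI of Scn7a, from median depths of 3107.5, 7309.5 and 7862 UMIs. In SGC-like nuclei the neuron markers, 10 of 10 detected, summed to 1162, 1683 and 1474 CPM. The NMSC markers, 6 of 6 detected, summed to 18338, 13835 and 14696 CPM there and to 17852, 17885 and 17839.6 in NMSC-like nuclei, so this list hardly separates the classes. Their part in the result was not tested. When nuclei were assigned one by one, the SGC-like call was lost (log2 0.80, adjusted p = 0.287). That assignment kept 1055 of the SGC-like nuclei as SGC and put 1343 with NMSC, so it compared partly other nuclei. In NMSC-like nuclei the difference was 0.18 (adjusted p = 0.769) with over 2000 genes required per nucleus, and DESeq2 did not call it (log2 0.81, adjusted p = 0.0847) or that of fibroblast-like nuclei (log2 0.76, adjusted p = 0.894). Both were also lost after thinning (log2 1.01 and 0.73), and the fibroblast-like call with over 2000 genes (log2 0.73) and with no filter (0.73).

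The other calls outside neurons stood beside differences in neuronal RNA. In SGC-like nuclei Scn9a was 71.7, 138 and 147 CPM (log2 0.81, adjusted p = 0.0349), 1.00, 2.21 and 1.40 times the bound. That call was lost under one-by-one assignment (log2 0.44), with over 2000 genes (0.54) and after thinning (0.62). In myeloid-like nuclei Scn1a, Scn7a, Scn9a, Scn10a and Scn11a were lower with age (log2 -1.43, -1.21, -1.19, -1.97 and -1.63), where 13.8% of genes were called. Scn10a led them with 166, 46.2 and 35.4 CPM (log2 -1.97 ± 0.28 SE, adjusted p = 0.00035), 1.11, 0.7997 and 0.730 times the bound. Neuron markers, 10 of 10 detected, summed to 2644, 1148 and 877 CPM over the same nuclei. The calls of Scn7a, Scn9a and Scn11a were lost by DESeq2 (log2 -1.22, -1.19 and -1.63), under one-by-one assignment (-1.24, -0.96 and -0.95) and after thinning (-0.32, -0.59 and -0.86). That of Scn1a was lost after thinning (-0.32), with library-size scaling (-1.48), with free RNA subtracted (-1.71) and under one-by-one assignment, where it turned to 0.65. In MSC-like nuclei Scn8a, Scn9a, Scn10a and Scn11a were lower (log2 -0.74, -0.52, -0.59 and -0.75), where 12.5% of genes were called and neuron markers, 10 of 10 detected, summed to 1954, 1415 and 1238 CPM. None of these 4 was called by DESeq2, where the differences were -0.76, -0.52, -0.59 and -0.77, or after thinning, where they were -0.064, -0.56, -0.55 and -0.21. Scn8a, Scn9a and Scn10a were also not called with no filter (-0.72, -0.51 and -0.57), with over 2000 genes (-0.88, -0.58 and -0.58) or with library-size scaling (-0.65, -0.44 and -0.50), and Scn8a, Scn9a and Scn11a not with free RNA subtracted (-0.50, -1.505 and -2.06). The part of neuronal RNA in these results was not tested. Tested against the mean age effect of the other classes, 5 of 72 gene and class pairs differed, against 0.645% of all, of which 4 were in SGC-like nuclei and 1 was Scn10a in myeloid-like ones. Of the SGC-like pairs, Scn8a and Scn11a were not called with age within that class alone. All 5 calls were lost under one-by-one assignment and with free RNA subtracted, and those of Scn9a and Scn11a in SGC-like nuclei after thinning. One-by-one assignment formed groups of partly other nuclei, so a loss under it does not decide on the main classes.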

How the data were processed

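Single nuclei from L3 to L5 DRG were profiled with a droplet 3' kit in 1 adult and 2 aged C57BL/6 libraries. The deposited matrices hold raw UMI counts per gene and barcode, made by the authors with Pipseeker per the study's methods, against mm10 per the submitters' processing notes and with no normalization. The strand setting is not given in the sources used here. Barcodes with more than 1000 genes were kept. Doublets were not called one by one, but clusters with markers of several lineages were left out as mixed. SCTransform and RPCA integration by age in Seurat 5.3.0 gave 29 clusters, from 3000 features without the 9 genes and 17 partners. Counts were summed per class or subtype (at least 20 nuclei in each library) and library and tested with edgeR 4.0.16 (TMM, filterByExpr, quasi-likelihood, R 4.3.3), with Benjamini-Hochberg adjustment over all genes at 0.05 and library as a block where classes or subtypes were compared. The library is the block because its classes come from the same nuclei suspension. For age each library gave 1 sum. The script was tested on simulated data.

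Intervals of shares are 95% Clopper-Pearson intervals, and intervals and floors (3 counts) cover counting error only. Depth was 3269, 4317.5 and 4900 median UMIs per nucleus in adult 1, aged 1 and aged 2. Low-Malat1 clusters were those under 0.5 of the median Malat1 share of neuron clusters. Gene positions are from GENCODE M21 (GRCm38), in which 32098 of 32227 gene identifiers matched. Alternatives were DESeq2 1.42.0, no filter, library-size scaling, over 2000 genes per nucleus, thinning to 1000 UMIs, assignment of each nucleus from markers, subtraction of free RNA, no library block and each library left out. One-by-one assignment differed widely from the clusters. Of neuron-like nuclei it kept 4322, put 388 with NMSC and left 3129 unassigned. Of SGC-like nuclei it kept 1055, put 1343 with NMSC and left 1441 unassigned. Low-Malat1 nuclei then made up 754 of 2556, 1029 of 1336 and 405 of 638 neurons. All 9 alpha subunits are named, partners where they passed the threshold, and for each alpha subunit but Scn4a the 3 genes with the most similar pattern among those of at least 20 CPM. Some genes that this rule takes are not reported here. The members and lists were chosen with earlier results of these data known.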

Additional observations from a re-analysis of the deposited data

Results flagged for a closer look

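Age effects of 5 gene and class pairs differed from the mean age effect of the other classes, by the edgeR quasi-likelihood test of that difference, of 72 pairs tested and against 0.645% of all pairs. This test was chosen after the data had been seen. It weighs each other class equally, also B lymphocyte-like nuclei. Their lowest library held 0 CPM of Scn7a, Scn8a and Scn11a, and the part of such classes in the differences was not tested. In SGC-like nuclei the log2 difference of age effects was 1.69 ± 0.29 (SE, adjusted p = 0.00837) for Scn7a, 1.39 ± 0.28 (SE, adjusted p = 0.016) for Scn11a, 1.25 ± 0.27 (SE, adjusted p = 0.0303) for Scn8a and 1.21 ± 0.22 (SE, adjusted p = 0.0118) for Scn9a. The SGC-like levels of Scn11a were 32.5, 51.5 and 59.6 CPM and those of Scn8a 52.2, 98.5 and 90.6, both aged values above the adult one for each gene. Neither gene was called with age within SGC-like nuclei alone. In SGC-like nuclei summed neuron markers were 1162, 1683 and 1474 CPM, higher in both aged libraries, and the median depth was 3107.5, 7309.5 and 7862 UMIs. Under one-by-one assignment none of these 4 differences was called (0.98, 0.64, 0.74 and 0.83 for Scn7a, Scn11a, Scn8a and Scn9a). After thinning the calls of Scn11a (1.54, adjusted p = 0.55) and Scn9a (1.13, adjusted p = 0.06) were lost, and that of Scn11a also with over 2000 genes per nucleus (1.12, adjusted p = 0.0708).

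In myeloid-like nuclei the difference for Scn10a was -1.78 ± 0.39 (SE, adjusted p = 0.0105), lower with age, and it was not called under one-by-one assignment (-1.46). Scn10a there was 166, 46.2 and 35.4 CPM from 86, 56 and 34 UMIs, beside neuron markers of 2644, 1148 and 877 CPM. The largest share that free RNA could take in myeloid-like nuclei was 28.2%, 11.0% and 7.94%. The part of free RNA in these 5 results was not tested directly, and the number of called pairs was 0 of 72 once free RNA was subtracted. The free-RNA bound exceeded the level of Scn7a and Scn11a in adult SGC-like nuclei and of Scn10a in aged myeloid-like nuclei, and adult Scn9a stood at 1.00 times it, so the differences fitted for these 4 genes after subtraction are set by the prior count and say nothing of the size that remained. For Scn8a the fitted difference was then 1.53 (adjusted p = 0.24).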

How the results depend on the processing

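Most subtype calls held. For the alternative settings in this section the share of all genes called is not given. A changed count is therefore not read as particular to the alpha subunits. Of 81 pairs, 67 were called with the library block and 67 with no replicate block (67 shared). With a library left out 65 to 67 were called, and 58 of 72 after thinning. When nuclei were assigned one by one, 2 subtypes were kept, Mrgprd- and Trpm8-like neurons, so each was tested against the other alone. The 16 pairs of that setting thus hold each gene from both sides, as mirror images. Of these, 14 were called, 13 of them shared with the main calls. That contrast differs from the contrast over 9 subtypes, so these calls are not read as support for it. Over single pairs and settings, with the mirrored pairs included, 668 kept their direction and call and 15 lost the call.

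Of the class pairs, 29 of 72 were called, 23 with no replicate block (22 shared), 48 of 88 when nuclei were assigned one by one, and 12 to 32 with a library left out. Directions turned for Scn1a in endothelial-like (-0.40) and NMSC-like nuclei (0.92) under that assignment, for Scn9a in MSC-like (0.091) and Scn10a in myeloid-like nuclei (0.28) with free RNA subtracted, and for Scn3a in SGC-like nuclei with a library left out (-1.22 to 1.12). The cause was not tested. One-by-one assignment put 388 neuron-like and 1343 SGC-like nuclei with NMSC, so its NMSC group was not that of the clusters.

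None of the settings with a test called an alpha subunit with age in all neurons, and the sign of these small log2 differences moved. Under one-by-one assignment they became 0.022 for Scn8a, 0.065 for Scn3a and -0.23 for Scn2a, and after thinning 0.17 for Scn8a, -0.30 for Scn2a and 0.031 for Scn9a. With library-size scaling Scn3a stood at 0.085, Scn9a at 0.019 and Scn11a at 0.10, and with free RNA subtracted Scn2a at -0.021 and Scn7a at -0.018. In Malat1-rich neurons alone Scn3a stood at 0.018, and in low-Malat1 ones Scn4a at -0.44, Scn2a at -0.39, Scn1a at 0.20 and Scn11a at 0.083.

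Age calls within subtypes and other classes depended most on the settings, but how far those of all genes did so is not given. There were 15 of 121, but 3 by DESeq2, 8 of 116 with over 2000 genes per nucleus, 10 of 143 with no filter, 2 of 99 after thinning, 18 with library-size scaling (9 shared), 15 of 102 with free RNA subtracted (6 shared) and 8 of 90 under one-by-one assignment, where Scn1a in myeloid-like nuclei turned to 0.65. Without aged 2 the Scn10a difference in the Cadps2 cluster was -1.68, and without aged 1 the NMSC-like Scn7a difference was 0.59, values with no test. Differences of age effects between subtypes numbered 0, and 2 with no filter, 1 with library-size scaling, 1 with over 2000 genes and 2 with free RNA subtracted. Those between classes numbered 5, and 9 with library-size scaling, 0 under one-by-one assignment, where the 5 differences were smaller (0.64 to 0.98, and -1.46 for Scn10a), and 0 with free RNA subtracted, which left most of them without a size that can be read. In low-Malat1 barcodes 6 of 9 were called and 5 to 6 with a library left out, and Scn11a ran from -0.079 to 0.11, against 0.046 with all of them. That value averages over subtypes that differ. Scn11a was higher in low-Malat1 barcodes in 9 of 12 pairs and lower in 3, the Peptidergic C-like ones, whose match is uncertain. The median share of neuron-like nuclei with a UMI over genes and libraries was 60.7%, and 23.4% after thinning. No paired analysis was possible because adult and aged libraries share only replicate number 1 and come from different mice. With 1 adult library, depth and age cannot be told apart.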
